A study of Mus musculus with 20 samples.

Results

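The carriers of glucose, fructose and monocarboxylates followed here are 7 genes of the 47069 in the count table, chosen by name as the transport genes of the Slc5a and Slc2a families that a proximal tubule is known for. They are Slc5a2 and Slc5a1, which encode the sodium-glucose cotransporters SGLT2 and SGLT1, Slc5a8 and Slc5a12, which encode the sodium-coupled monocarboxylate carriers SMCT1 and SMCT2, and Slc2a1, Slc2a2 and Slc2a5, which encode the facilitative sugar carriers GLUT1, GLUT2 and GLUT5. All 7 of 7 passed the filter on low counts. Total RNA of whole kidneys was sequenced from 20 male mice of the mixed strain labelled 129SJ x C57Bl/6J, sacrificed at 15 weeks of age. The WT group (n = 5) had an intact Col4a3 gene and was left untreated. The other 15 mice were F1-Col4a3-/- mice, a model of Alport syndrome that lacks the collagen IV α3 chain in every cell, and all were treated from 5 weeks of age. The Veh group (n = 6) was given PBS under the skin once a week. The Anti-miR-21 group (n = 6) was given lademirsen, an oligonucleotide that inhibits miR-21, at 50 mg/kg on the same schedule. The ACEi group (n = 3) drank ramipril, an inhibitor of angiotensin-converting enzyme, at 11 mg/L and also received PBS injections, while the deposited library table gives its dose as 4 mg/kg. WT mice were not injected, so genotype and injection cannot be told apart in comparisons with WT, and there was no treated WT group.

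Filtered glucose is taken back almost wholly in the proximal tubule. In its early segments SGLT2 carries glucose across the apical membrane together with sodium, and GLUT2 lets it leave on the blood side; in the late segment SGLT1 takes up what is left, and GLUT1 is the exit carrier. GLUT5 is an apical fructose carrier. SMCT1 and SMCT2 take lactate, pyruvate, ketone bodies and nicotinate back from the filtrate with sodium, SMCT2 with low affinity in the early tubule and SMCT1 with high affinity further down. The sodium gradient that drives the Slc5a carriers is kept by the sodium pump of the basolateral membrane.

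The gene loci were read from the GENCODE annotation of GRCm38, and all lie on the + strand: Slc5a1 at chr5:33104219-33162870, Slc5a2 at chr7:128265657-128272430, Slc5a8 at chr10:88885992-88929515, Slc5a12 at chr2:110597298-110647779, Slc2a1 at chr4:119108711-119137983, Slc2a2 at chr3:28697903-28731359 and Slc2a5 at chr4:150119283-150144169. Some overlap other annotated genes on the opposite strand, Slc5a2 with BC017158, Slc2a2 with 1700112D23Rik and Slc2a1 with Gm12867 and Gm12868. Slc5a1 overlaps a pair of processed pseudogenes, 5033423K11Rik on the opposite strand and Gm15936 on its own. The sources used here do not say whether counting used strand. In any exons that overlap, reads of Slc5a1, Slc5a2, Slc2a1 and Slc2a2 therefore cannot be told apart from those of their antisense neighbours. The RefSeq promoter table (GRCm38.p6) holds 5 of the 7 genes, all but Slc5a2 and Slc5a12, as 300-base windows from 250 bases before to 50 bases after the start site. Motifs were searched on both strands of each window. The HNF4 motif CAAAGTCCA, held by 0.475% of the 32851 promoters of the table, was found in none of the 5 windows. The core of the hypoxia response element, ACGTG, is held by 19.6% of all promoters and was found in 2 of the 5, once in Slc2a1 at -36 to -32 and on both strands of Slc5a1, at -143 to -138, where the matches overlap. Positions count from the RefSeq start sites, the first bases after chr5:33104218 for Slc5a1 and after chr4:119108744 for Slc2a1. Sequences before these sites are shown with the matches in capitals, Slc5a1 over 150 bases at chr5:33104069-33104218 and Slc2a1 over 119 bases at chr4:119108595-119108713, both on the + strand. The GENCODE locus of Slc2a1 starts at chr4:119108711, inside the match, and the stretch shown ends with the match and not at the RefSeq start site.
Slc5a1: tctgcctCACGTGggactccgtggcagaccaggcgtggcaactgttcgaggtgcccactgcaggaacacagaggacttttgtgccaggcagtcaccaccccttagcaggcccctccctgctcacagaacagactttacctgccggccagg
Slc2a1: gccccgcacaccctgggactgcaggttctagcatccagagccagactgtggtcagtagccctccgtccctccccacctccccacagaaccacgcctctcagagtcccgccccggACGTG
A match of letters is a description only.

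The estimated counts summed to between 28474301 and 29479629 per mouse. Levels of 1 gene across mice are given as CPM, TMM-scaled counts on a common library size, and a difference was called where edgeR's quasi-likelihood test over 17622 genes gave an adjusted p under 0.05. The knocked-out gene was at 194 to 238 CPM in the WT mice and at 27.9 to 74.9 CPM in the 15 F1-Col4a3-/- mice. The summed CPM of 7 general proximal tubule markers was 19004 to 23889 in WT, 2041 to 5689 in Veh, 9959 to 17650 in Anti-miR-21 and 10010 to 12621 in ACEi mice. The summed level of 5 macrophage markers moved the other way, with 137 to 166 CPM in WT, 1187 to 1444 in Veh, 485 to 947 in Anti-miR-21 and 593 to 803 in ACEi mice, and that of 5 fibroblast markers was 111 to 258, 1504 to 1812, 429 to 822 and 805 to 915 CPM. The 5 tubule injury markers summed to 23.2 to 35.4 CPM in WT, 836 to 1352 in Veh, 268 to 555 in Anti-miR-21 and 536 to 624 in ACEi mice. In bulk RNA of a kidney, fewer tubule cells and less RNA per tubule cell cannot be told apart, and the part of these shifts in the results below was not tested. The labels' extraction text names adipose tissue although the tissue is given as kidney. The 5 adipocyte markers summed to over 100 CPM in 4 mice, Veh A1, A4 and A9 (173 to 277 CPM) and Anti-miR-21 A12 (243 CPM), and to 22.2 to 84.2 CPM in the others, so the fold changes and count ratios of the members were also computed without these 4 mice. The libraries were run on 2 flow cells. Flow cell B holds 7 libraries, among them WT A17 and A18, Veh A16 and A20, Anti-miR-21 A10 and ACEi A11 and A13. The 4 mice high in adipocyte markers were all run on flow cell A, where A19 was the only other Veh mouse. Among Veh mice, flow cell and the adipocyte markers therefore cannot be told apart.

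**Figure D1:**
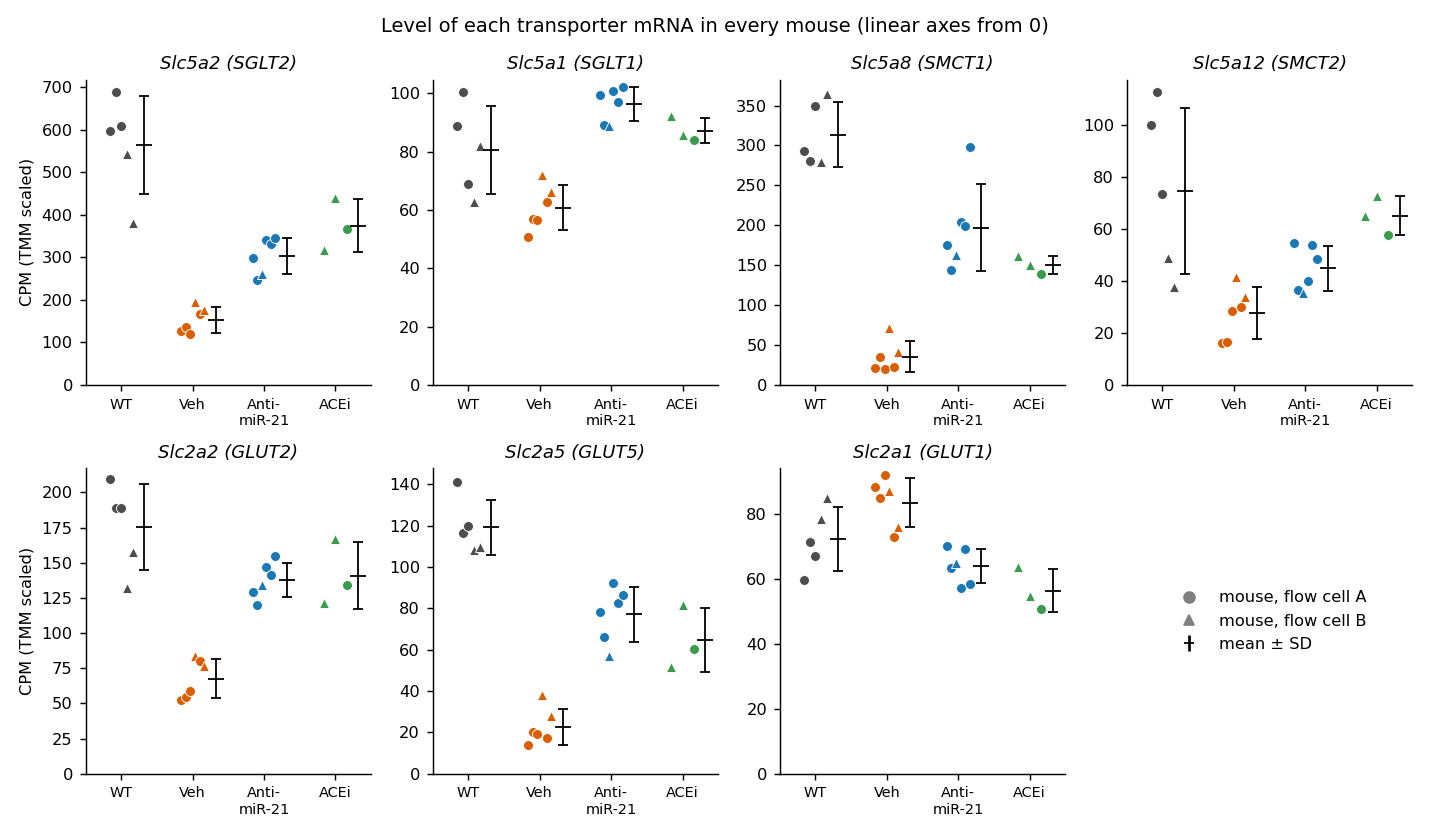
TMM-scaled CPM (linear axes from 0) of the 7 transporters in every mouse of the 4 groups, with circles for flow cell A, triangles for flow cell B and bars for mean ± SD. Slc5a8 is at 279.5 to 365 CPM in WT and at 19.7 to 71.0 CPM in Veh mice, while the Slc2a1 ranges of those groups overlap.

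In untreated disease, 6 of the 7 transporters were lower and 1, Slc2a1, was higher in Veh than in WT mice. Over all genes tested, 34.0% were lower and 39.0% higher in this comparison. No CPM value of one group fell within the other's range for 54.9% of them and for 4 of the 7 members (Slc5a2, Slc5a8, Slc2a2 and Slc2a5). The median log2 fold change was -1.42 over the 7 members and 0.07 over all genes tested.

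The apical glucose carrier of the early tubule, Slc5a2, was at 597, 689, 609, 543 and 381 CPM in WT mice A3, A6, A14, A17 and A18. In Veh mice it ranged from 120.3 to 196 CPM with a median of 152. Every Veh mouse lay below every WT mouse, and A18 was the lowest of the WT mice. The difference was 3.67-fold (log2 fold change -1.87, SE 0.15, edgeR adjusted p = 8.48e-10), with -2.18 within flow cell A and -1.31 within flow cell B. The late-segment carrier Slc5a1 was at 88.7, 100.5, 68.9, 62.7 and 82.0 CPM in the same WT mice and at 50.7 to 72.1 CPM in Veh mice, with a median of 59.8. Here the groups overlapped, with Veh A16 above WT A14 and A17. Its log2 fold change was -0.41 (SE 0.10, edgeR adjusted p = 0.00145). That call depends on the scaling and on the mice used. Scaling by library totals alone shifted the median of all genes to 0.65 and gave Slc5a1 a value of 0.18 (adjusted p = 0.103), below that median but above 0. Within flow cell B the value was -0.07 (adjusted p = 0.717), and without the 4 mice high in adipocyte markers it was -0.26 (adjusted p = 0.0583).

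The monocarboxylate carriers both fell. Slc5a8 had the largest change of the 7 genes. It was at 293, 281, 350.0, 279.5 and 365 CPM in WT mice and at 19.7 to 71.0 CPM in Veh mice, with a median of 28.997. No Veh mouse came near the WT range, and Veh A16 stood highest in its group. The difference was 8.90-fold (log2 fold change -3.15, SE 0.27, edgeR adjusted p = 2.12e-09) and reached -3.48 on the log2 scale without A16. Slc5a12 was at 100.2, 113, 73.7, 48.9 and 37.9 CPM in WT mice and at 16.2 to 41.7 CPM in Veh mice, with a median of 29.4. The WT mice themselves spread 2.97-fold, and A18 lay below Veh A16. The log2 fold change of Slc5a12 was -1.42 (SE 0.26, edgeR adjusted p = 5.62e-05). It differed between flow cells, with -2.05 (adjusted p = 2.91e-06) within flow cell A and -0.20 (adjusted p = 0.335) within flow cell B, where the lowest WT and the highest Veh mice were run. Without the mice high in adipocyte markers, all of them run on flow cell A, it was -1.08 (edgeR adjusted p = 0.00315).

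Among the facilitative carriers, Slc2a2 and Slc2a5 fell and Slc2a1 rose slightly. Slc2a2, the exit carrier for glucose in the early tubule, was at 209.2, 189, 189, 132 and 158 CPM in WT mice and at 52.2 to 83.7 CPM in Veh mice (median 67.7). The ranges did not touch, and the difference was 2.59-fold (log2 fold change -1.38, SE 0.14, edgeR adjusted p = 1.37e-08). Slc2a5, the fructose carrier, was at 141, 116, 119.9, 108 and 109.7 CPM in WT mice and at 13.8 to 37.8 CPM in Veh mice (median 19.6). All 6 Veh mice were again below all 5 WT mice, by 5.25-fold on average (log2 fold change -2.39, SE 0.20, edgeR adjusted p = 1.46e-09). Slc2a1, the widely expressed basal glucose carrier, was at 59.6, 71.3, 67.1, 78.5 and 84.8 CPM in WT mice and at 72.7 to 91.8 CPM in Veh mice (median 85.9). Here the ranges overlapped, and the WT mice of flow cell B were the highest of their group. Its log2 fold change was 0.21 (SE 0.09, edgeR adjusted p = 0.0430). With library totals, where the median of all genes was 0.65, it was 0.79 (adjusted p = 1.58e-06), and on the log2(FPKM + 1) scale in limma 0.78 (adjusted p = 2.65e-06). The call was lost when any of 7 mice (WT A3, A6 and A14, Veh A1, A4, A9 and A16) was left out (adjusted p up to 0.144, with values of 0.15 to 0.27 over all mice left out in turn), and within flow cell B the value was -0.01 (adjusted p = 0.974). It was also lost in DESeq2 (0.19, adjusted p = 0.0635) and without the mice high in adipocyte markers (0.12, adjusted p = 0.334). Without those mice 5 of the 7 members were called, all but Slc5a1 and Slc2a1, where 67.7% of all genes tested were called.

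**Figure D2:**
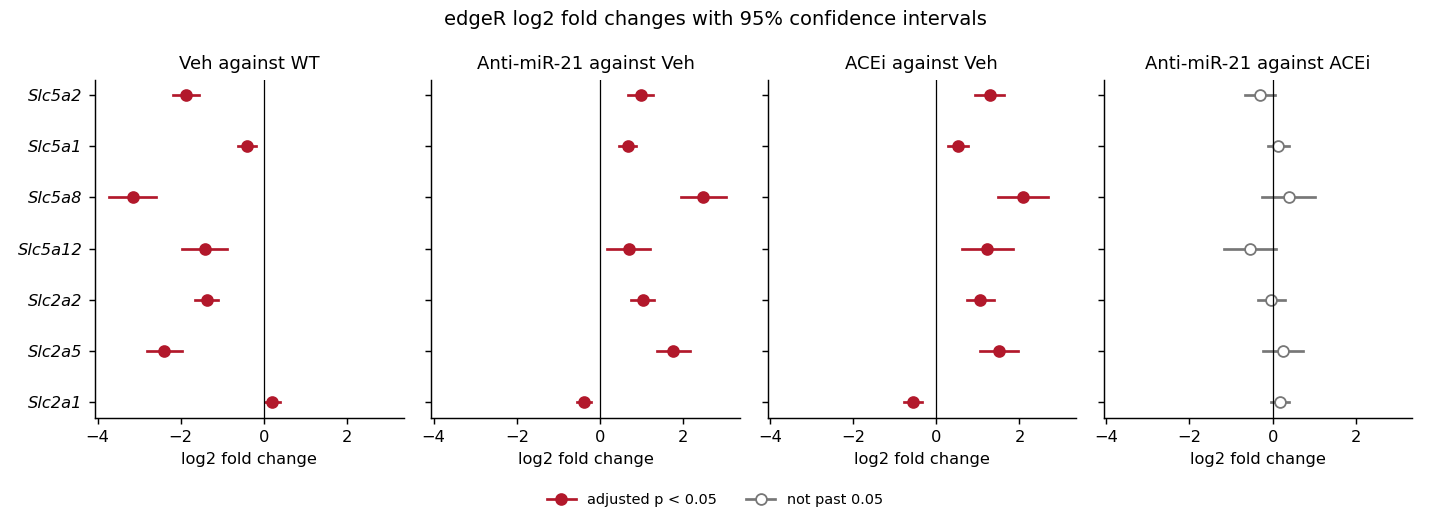
log2 fold changes from edgeR (x axis, points) with 95% confidence intervals (lines) for the 7 transporters in 4 comparisons, filled red where the adjusted p is under 0.05 and open grey where it is not. In the 3 comparisons with Veh the same 6 genes lie on one side of 0 and Slc2a1 on the other, whereas every interval for Anti-miR-21 against ACEi includes 0.

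Both treatments were compared with the same Veh mice. In Anti-miR-21 against Veh, 6 members were higher and Slc2a1 was lower, where 28.8% of all genes tested were higher and 30.5% lower, and the CPM did not overlap for 6 members and for 36.4% of all genes. The members' median log2 fold change was 0.98, against -0.04 over all genes. In ACEi against Veh the same 6 were higher and Slc2a1 was lower, where 21.0% of all genes were higher and 19.1% lower, and the CPM did not overlap for 7 members and for 38.6% of all genes. The members' median was 1.23, against -0.05 over all genes.

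Slc5a2 was at 246 to 346 CPM in Anti-miR-21 mice, with a median of 314, and at 318, 440.4 and 367 CPM in ACEi mice A11, A13 and A23. Both ranges lie above all Veh mice, at log2 fold changes of 0.98 (SE 0.14, edgeR adjusted p = 8.73e-06) and 1.29 (SE 0.17, edgeR adjusted p = 1.85e-05). Slc5a1 was at 88.8 to 102 CPM in Anti-miR-21 mice (median 98.2) and at 92.1, 85.6 and 84.0 CPM in ACEi mice. Each treated mouse was above the highest Veh mouse, and the Anti-miR-21 mice differed from each other by no more than 1.15-fold. The log2 fold changes were 0.66 (SE 0.10, edgeR adjusted p = 1.01e-05) for Anti-miR-21 and 0.52 (SE 0.12, edgeR adjusted p = 0.00174) for ACEi. For ACEi the value was 0.25 (adjusted p = 0.0675) when libraries were scaled by their totals alone, and 0.37 (adjusted p = 0.157) within flow cell B.

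Slc5a8 was at 144 to 298 CPM in Anti-miR-21 mice (median 187) and at 161, 150.3 and 139 CPM in ACEi mice. Anti-miR-21 mouse A22 alone reached the WT range, and the 3 ACEi mice lay close together between the Veh and WT ranges. The increases over Veh were 5.59-fold (log2 fold change 2.48, SE 0.26, edgeR adjusted p = 1.77e-07) and 4.26-fold (2.09, SE 0.29, edgeR adjusted p = 2.52e-05). Slc5a12 was at 35.6 to 54.6 CPM in Anti-miR-21 mice (median 44.3) and at 65.1, 72.7 and 57.6 CPM in ACEi mice. The Anti-miR-21 range overlapped that of Veh, because Veh A16 lay above 3 of the 6 treated mice, and the ACEi range did not. The log2 fold changes were 0.69 (SE 0.25, edgeR adjusted p = 0.0228) and 1.23 (SE 0.29, edgeR adjusted p = 0.00260). For Anti-miR-21 the call was lost with scaling by library totals (0.35, adjusted p = 0.196) and without the mice high in adipocyte markers (0.40, adjusted p = 0.257).

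Slc2a2 was at 120.1 to 155 CPM in Anti-miR-21 mice (median 138) and at 121, 167 and 134 CPM in ACEi mice, above every Veh mouse in both groups. The log2 fold changes were 1.03 (SE 0.13, edgeR adjusted p = 1.50e-06) and 1.06 (SE 0.15, edgeR adjusted p = 3.26e-05). Slc2a5 was at 56.8 to 92.3 CPM in Anti-miR-21 mice (median 80.5) and at 51.8, 81.6 and 60.3 CPM in ACEi mice. All treated mice lay between the Veh and WT ranges, with log2 fold changes over Veh of 1.76 (SE 0.19, edgeR adjusted p = 2.74e-07) and 1.51 (SE 0.22, edgeR adjusted p = 3.84e-05). Slc2a1 was at 57.2 to 70.01 CPM in Anti-miR-21 mice (median 64.1) and at 63.6, 54.8 and 50.7 CPM in ACEi mice, below every Veh mouse. The log2 fold changes were -0.39 (SE 0.08, edgeR adjusted p = 0.000622) and -0.57 (SE 0.11, edgeR adjusted p = 0.000359). Without the 4 mice high in adipocyte markers the first was -0.25 (adjusted p = 0.0741), and within flow cell B the second was -0.46 (adjusted p = 0.0666). Without those 4 mice, 5 members were called in Anti-miR-21 against Veh, where 46.4% of all genes tested were, and 7 in ACEi against Veh, where 26.7% were. Within flow cell A, which held 5 Anti-miR-21 and 4 Veh mice, the 6 increases over Veh ranged from 0.79 (Slc5a1) to 3.05 (Slc5a8) on the log2 scale. Within flow cell B, with 2 ACEi and 2 Veh mice, those for ACEi ranged from 0.37 (Slc5a1) to 1.47 (Slc5a8).

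Between the treatments no member was called, where 0.584% of all genes tested were. In the main edgeR fit 0 of the 7 had an adjusted or an unadjusted p under 0.05, and by DESeq2 0 had either. In edgeR an unadjusted p under 0.05 was reached by 2 members with library totals and by 2 with the compared groups alone. It was reached by 1 with flow cell as a term and by 1 without the mice high in adipocyte markers. In limma 1 reached it on log2(FPKM + 1) and 1 on log2(FPKM + 0.1). In all of these settings 0 were called, where 0.312% to 2.57% of all genes were. The share of all genes with an unadjusted p under 0.05 was not computed, so nothing is read from the unadjusted counts. Slc5a12 had the largest difference of the 7, at -0.54 on the log2 scale for Anti-miR-21 against ACEi (95% confidence interval -1.16 to 0.08, edgeR adjusted p = 0.419). For Slc5a2 the difference was -0.30 (-0.67 to 0.06) and for Slc5a8 0.39 (-0.24 to 1.03), each interval at 95%. Slc2a2 had a difference of -0.03 (-0.36 to 0.29).

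Compared with WT, 5 of the 7 transporters were lower and none was higher in Anti-miR-21 mice, where 19.8% of all genes tested were lower and 23.9% higher. Slc5a2 had the largest remaining difference, with a log2 fold change of -0.89 (SE 0.15, edgeR adjusted p = 8.39e-05). Slc2a5 (-0.63, edgeR adjusted p = 0.0130), Slc5a12 (-0.73, edgeR adjusted p = 0.0268), Slc5a8 (-0.67, edgeR adjusted p = 0.0402) and Slc2a2 (-0.35, edgeR adjusted p = 0.0411) were also lower. Of these, Slc5a8, Slc5a12 and Slc2a2 lost the call when single mice were left out, Slc5a8 for any of 8 mice (WT A3, A14 and A18, Anti-miR-21 A2, A8, A10, A12 and A15), Slc2a2 for any of 7 (WT A3, A6 and A14, Anti-miR-21 A2, A8, A10 and A15) and Slc5a12 for any of 4 (WT A3 and A6, Anti-miR-21 A8 and A10). With flow cell as a term, Slc5a8 (-0.57, edgeR adjusted p = 0.0689) and Slc2a2 (-0.35, edgeR adjusted p = 0.0528) lost the call as well. The values without 1 mouse ran from -0.82 to -0.59 for Slc5a8, from -0.44 to -0.27 for Slc2a2 and from -0.90 to -0.54 for Slc5a12. Slc5a1 was at 0.26 (edgeR adjusted p = 0.0505) and passed the threshold when A3, A6 or A10 was left out, at up to 0.35, and with library totals alone at 0.50 (adjusted p = 0.000373), where the median of all genes was 0.26. It was also called higher with upper-quartile scaling (0.29, adjusted p = 0.0206), without the filter on low counts (0.28, adjusted p = 0.0405), with at least 10 counts in every mouse (0.30, adjusted p = 0.0199), without the mice high in adipocyte markers (0.27, adjusted p = 0.0419), and in limma on log2(FPKM + 1) (0.49, adjusted p = 0.000504), on log2(FPKM + 0.1) (0.52, adjusted p = 0.000395) and on FPKM divided by TMM factors (0.27, adjusted p = 0.0477). With library totals the only members called were Slc5a2, which was lower, and Slc5a1, which was higher, where 49.5% of all genes were called. In ACEi against WT, 4 members were lower and none was higher, where 22.5% of all genes were lower and 25.2% higher. These were Slc5a8 (-1.06, edgeR adjusted p = 0.0103), Slc2a5 (-0.88, edgeR adjusted p = 0.00530), Slc5a2 (-0.59, edgeR adjusted p = 0.0124) and Slc2a1 (-0.36, edgeR adjusted p = 0.0103). The Slc5a2 call was lost without ACEi A11 (-0.47) and the Slc2a1 call without ACEi A23 (-0.28), while Slc2a2, at -0.32 (edgeR adjusted p = 0.120), was called without WT A17 (-0.40). With library totals, which put the median of all genes at 0.31, the calls of Slc5a2 (-0.28, adjusted p = 0.151) and Slc2a1 (-0.05, adjusted p = 0.780) were lost and Slc5a1 was higher (0.43, adjusted p = 0.00459). Slc5a12 was at -0.20 (95% confidence interval -0.85 to 0.46), and within flow cell B alone, with 2 mice in each group, it was higher in ACEi than in WT mice, at 0.67 (adjusted p = 0.0227). In the same mice of flow cell B the calls of Slc5a2 (-0.28, adjusted p = 0.362) and Slc2a5 (-0.71, adjusted p = 0.0571) were lost, and those of Slc5a8 (-1.05, adjusted p = 0.0236) and Slc2a1 (-0.46, adjusted p = 0.0306) were kept.

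Levels of different genes can be compared only per length, so their order was read from the deposited FPKM, which are scaled by library total and not by TMM. In WT mice Slc5a2 was the most abundant of the 7 at 203.97 ± 42.5 FPKM (SD, n = 5), above every value of the other members. Slc2a2 (50.9 ± 6.31) and Slc5a8 (48.6 ± 6.03) followed and overlapped with each other. Slc2a5 (31.6 ± 2.48), Slc5a12 (29.8 ± 9.14), Slc2a1 (23.2 ± 3.67) and Slc5a1 (16.8 ± 3.20) came next, each overlapping its neighbour, although Slc2a1 was above Slc5a1 in 5 of 5 mice. In Veh mice Slc5a2 was still first at 83.6 ± 14.4 FPKM (SD, n = 6), but Slc2a1 was second at 40.3 ± 3.44, above every value of Slc2a2 (29.1 ± 4.08). Slc5a8, close behind Slc2a2 in WT mice, was last at 8.11 ± 4.05 FPKM, next to Slc2a5 at 9.04 ± 3.08, whose range it overlapped. Slc5a1 was at 19.1 ± 2.0 and Slc5a12 at 16.6 ± 4.39 FPKM, and their ranges overlapped. In Anti-miR-21 mice Slc5a2 (129.5 ± 11.3 FPKM, SD, n = 6), Slc2a2 (46.9 ± 2.11) and Slc5a8 (35.8 ± 7.44) led again, and Slc2a1, Slc2a5, Slc5a1 and Slc5a12 lay together between 22.4 and 24.4 FPKM on average, each overlapping the next. In ACEi mice Slc5a2 (168 ± 21.5 FPKM, SD, n = 3) and Slc2a2 (49.2 ± 5.85) led, followed by Slc5a12 (31.2 ± 2.85) and Slc5a8 (29.003 ± 2.81), which overlapped, while Slc5a1, Slc2a1 and Slc2a5 were at 21.3 to 22.7 FPKM and overlapped. The authors marked the FPKM entries of Slc5a2 and Slc2a1 as confounded with other genes. For Slc5a8 and Slc5a12 the order in Veh and ACEi mice depends on the measure. On average the counts placed Slc5a8 above Slc5a12 in both groups, where the FPKM placed it below.

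**Figure D3:**
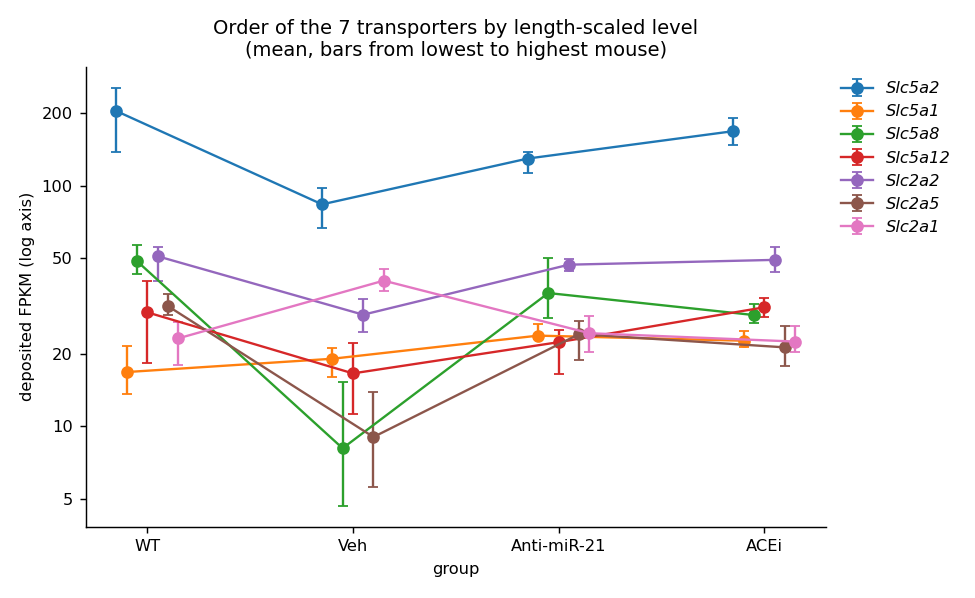
Deposited FPKM (log axis) of the 7 transporters in the 4 groups, as the mean with bars from the lowest to the highest mouse, shifted sideways for legibility, with lines that only join the means of the same gene. Slc5a2 is above all others in every group, and Slc5a8 is last in Veh mice at 8.11 FPKM after a WT mean of 48.6.

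A ratio of counts of 2 carriers within a mouse does not depend on scaling between libraries, and 3 such ratios were compared with exact two-sided permutation tests, adjusted over 12 tests. The log2 ratio of Slc5a1 to Slc5a2 was -2.80 ± 0.37 (SD, n = 5) in WT, -1.32 ± 0.14 (n = 6) in Veh, -1.65 ± 0.13 (n = 6) in Anti-miR-21 and -2.09 ± 0.29 (n = 3) in ACEi mice. The values of Veh mice did not overlap with those of any other group, and those of Anti-miR-21 mice all lay between Veh and ACEi. Veh differed from WT by 1.48 and Anti-miR-21 from Veh by -0.32 (both exact permutation p = 0.00216, adjusted 0.00433). ACEi differed from Veh by -0.77 and Anti-miR-21 from ACEi by 0.44 (both exact permutation p = 0.0119, adjusted 0.0143). Each of these is the smallest p that its division of mice allows. Without the 4 mice high in adipocyte markers Veh differed from WT by 1.38 and Anti-miR-21 from ACEi by 0.46 (both adjusted permutation p = 0.0357), and Anti-miR-21 against Veh missed the threshold at -0.20 (adjusted permutation p = 0.0804).

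The log2 ratio of Slc5a8 to Slc5a12 fell from 2.18 ± 0.78 (n = 5) in WT to 0.27 ± 0.65 (n = 6) in Veh mice and was 2.12 ± 0.34 (n = 6) in Anti-miR-21 and 1.21 ± 0.14 (n = 3) in ACEi mice. The FPKM ratio, with exon lengths of 5331 and 5191 bases, averaged 1.81, 0.49, 1.61 and 0.93 in the same order. In Veh and ACEi mice the counts thus placed Slc5a8 above Slc5a12 on average and the FPKM below. The reason was not tested, and which gene was more abundant there is not settled. For counts the difference was -1.91 between Veh and WT and 1.85 between Anti-miR-21 and Veh (both exact permutation p = 0.00216, adjusted 0.00433). For FPKM the first was -1.88 on the log2 scale. Within flow cell A the first was -1.57 (adjusted permutation p = 0.0571). Without the mice high in adipocyte markers it was -1.97 (adjusted permutation p = 0.0612), and the second was 1.86 (adjusted permutation p = 0.0357). ACEi did not pass the threshold against Veh, at 0.94 (exact permutation p = 0.0595, adjusted 0.0649), with Veh A4 inside the ACEi range. Anti-miR-21 mice were all above ACEi mice, by 0.91 (exact permutation p = 0.0119, adjusted 0.0143). The 4 markers of the late segment S3 summed to 1103 to 2371 CPM in Anti-miR-21 and to 944 to 1049 CPM in ACEi mice, and the 5 markers of segments S1 and S2 to 1137 to 1521 and to 1267 to 1633 CPM. The sums for S3 did not overlap and those for S1 and S2 did, and edgeR called 0 of the 4 and 0 of the 5 markers between these groups. In WT and Veh mice the S3 sums were 2250 to 2791 and 230 to 573 CPM. Those for S1 and S2 were 1456 to 2642 and 476 to 980 CPM. All 4 S3 markers were lower in Veh than in WT mice (median log2 fold change -2.97), as were all 5 of S1 and S2 (-1.35). In this comparison 34.0% of all genes were lower. The late-segment carrier Slc5a1 was at -0.41 there and the early-segment carrier Slc5a2 at -1.87. The part of the segment markers in the ratios was not tested.

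The log2 ratio of Slc2a1 to Slc2a2 was -1.27 ± 0.44 (n = 5) in WT, 0.32 ± 0.40 (n = 6) in Veh, -1.11 ± 0.22 (n = 6) in Anti-miR-21 and -1.32 ± 0.35 (n = 3) in ACEi mice. Veh differed from WT by 1.596 and Anti-miR-21 from Veh by -1.43 (both exact permutation p = 0.00216, adjusted 0.00433), and ACEi against Veh was -1.64 (exact permutation p = 0.0119, adjusted 0.0143). Anti-miR-21 and ACEi differed by 0.21 (exact permutation p = 0.250, adjusted 0.250). Within Veh the mice formed a pair of separate sets, A1, A4 and A9 at 0.63 to 0.76 and A16, A19 and A20 at -0.13 to 0.06. The first set are the Veh mice high in adipocyte markers (173 to 277 CPM, against 22.2 to 43.8 CPM in the other Veh mice), and both sets lie above all WT mice. Without the 4 mice high in adipocyte markers, Veh differed from WT by 1.24 and Anti-miR-21 from Veh by -1.02 (both adjusted permutation p = 0.0357). ACEi against the 3 remaining Veh mice was -1.28 (exact permutation p = 0.10, the smallest that 3 against 3 mice allow).

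**Figure D4:**
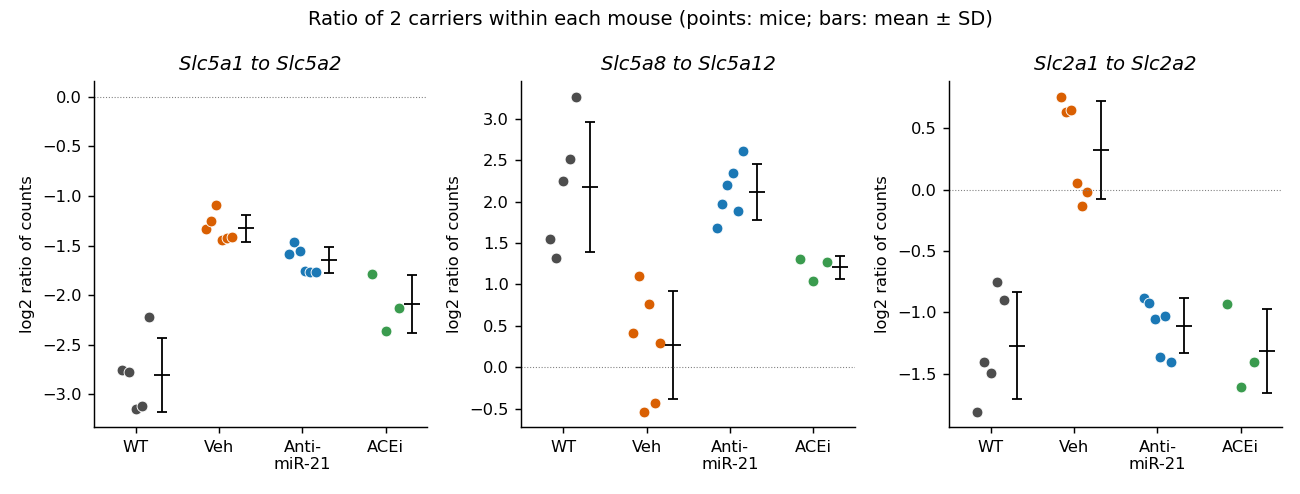
log2 ratio of counts of 2 carriers within each mouse (y axes) by group, with points for mice and bars for mean ± SD. The Slc2a1 to Slc2a2 ratio is at -0.13 or above in every Veh mouse and at -0.75 or below in every other mouse.

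The genes around the transporters were read from 5 lists with 62 genes, 57 of which were tested. The counts and medians of all 5 lists stand beside the following values over all genes tested. In Veh against WT 34.0% were lower and 39.0% higher (median log2 fold change 0.07). In Anti-miR-21 against Veh 28.8% were higher and 30.5% lower (median -0.04). In ACEi against Veh 21.0% were higher and 19.1% lower (median -0.05). Of the other Slc2a and Slc5a carriers, 14 of 18 were tested. In Veh against WT 8 were lower and 3 higher (median log2 fold change -1.04), in Anti-miR-21 against Veh 8 were higher and 5 lower (median 0.43), and in ACEi against Veh 6 were higher and 2 lower (median 0.31). The largest falls of the list were those of Slc5a10, the fructose and mannose carrier SGLT5, from 361 ± 19.3 CPM in WT to 97.8 ± 29.7 CPM in Veh mice (-1.88, edgeR adjusted p = 2.88e-09), and of Slc2a12, the glucose carrier GLUT12 (-1.73, edgeR adjusted p = 4.75e-10). Slc5a10 was at 304 ± 61.5 CPM in Anti-miR-21 and at 262 ± 26.3 CPM in ACEi mice. Slc2a6 (GLUT6), from 0.690 ± 0.31 to 8.41 ± 1.21 CPM (3.599, edgeR adjusted p = 4.67e-10), and Slc2a10 (GLUT10, 2.34, edgeR adjusted p = 5.13e-09) rose in Veh and were lower in both treated groups than in Veh.

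The Slc16a family holds the proton-coupled monocarboxylate carriers, which need the chaperones Bsg or Emb to reach the membrane. All 16 listed genes were tested. In Veh against WT 13 were lower and 2 higher (median -0.78), against 12 higher and 2 lower under Anti-miR-21 (median 0.45) and 11 higher and 2 lower under ACEi (median 0.47), both against Veh. Slc16a4 fell from 137 ± 9.41 CPM to 12.2 ± 7.21 CPM (-3.50, edgeR adjusted p = 6.45e-10), and Slc16a14 from 34.6 ± 6.32 to 4.92 ± 2.31 CPM (-2.82, edgeR adjusted p = 2.57e-09). Slc16a3, the lactate exporter MCT4, rose from 1.67 ± 0.50 to 10.6 ± 2.72 CPM (2.66, edgeR adjusted p = 4.64e-10) and was at 3.43 ± 0.68 and 4.01 ± 0.26 CPM in Anti-miR-21 and ACEi mice. Emb, the other gene that was higher in Veh, had a log2 fold change of 0.65 (edgeR adjusted p = 2.30e-07). Slc16a7, the pyruvate carrier MCT2, was the only gene of the 5 lists called between the treatments, at 0.71 for Anti-miR-21 against ACEi (edgeR adjusted p = 0.0432), and is named after its values were seen.

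The scaffold proteins, the SGLT2 partner Pdzk1ip1 and the sodium pump make up 8 tested genes. In Veh against WT 7 were lower and none was higher (median -1.24). All 8 were higher in Anti-miR-21 than in Veh mice (median 0.84) and 6 in ACEi than in Veh mice (median 0.65). Pdzk1, a scaffold of the brush border, was at 1455 ± 113 CPM in WT and 289 ± 98.3 CPM in Veh mice (-2.33, edgeR adjusted p = 2.02e-10), and at 947 ± 158 and 792 ± 66.8 CPM in Anti-miR-21 and ACEi mice. Slc9a3, the apical sodium-hydrogen exchanger, fell from 7.02 ± 4.69 to 1.48 ± 1.09 CPM (-2.25, edgeR adjusted p = 0.000902), with a spread between mice close to its level.

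Of 6 regulators known to act on these carriers, 4 were lower and 1 higher in Veh than in WT mice (median -1.18), and against Veh 2 were higher and 1 lower under each treatment (medians 0.59 and 0.54). Hnf4a, a transcription factor of proximal tubule genes, fell from 826 ± 89.1 to 245 ± 52.9 CPM (-1.75, edgeR adjusted p = 3.27e-10) and was at 623 ± 85.8 and 570.2 ± 31.8 CPM in Anti-miR-21 and ACEi mice. Hif1a, the hypoxia-inducible factor, was higher by 0.23 (edgeR adjusted p = 0.0157) in Veh than in WT mice and lower under both treatments than in Veh, by changes of -0.22 and -0.30 on the log2 scale (edgeR adjusted p = 0.0211 and 0.0184).

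Of the first enzymes for the carried substrates, 13 of 14 were tested. In Veh against WT 10 were lower and 2 higher (median -2.11), with 10 higher and 3 lower under Anti-miR-21 (median 1.54) and 10 higher and 2 lower under ACEi (median 1.32), both against Veh. Khk, which phosphorylates fructose, fell from 923 ± 80.2 to 138 ± 40.0 CPM (-2.74, edgeR adjusted p = 6.69e-11), and Ldhd, which oxidises D-lactate, from 2169 ± 194 to 374 ± 190 CPM (-2.54, edgeR adjusted p = 7.53e-09). Hk2, a hexokinase, rose from 0.660 ± 0.24 to 11.2 ± 2.63 CPM (4.07, edgeR adjusted p = 2.13e-11) and was at 3.47 ± 0.59 and 4.33 ± 1.59 CPM in Anti-miR-21 and ACEi mice. Hk3, a hexokinase known from blood cells, rose from 0.561 ± 0.31 to 6.69 ± 2.52 CPM (3.56, edgeR adjusted p = 1.72e-08). In Veh mice the macrophage markers named above were also higher, and their part in the Hk3 level was not tested. The lists were chosen with results of these data known, and nothing particular to them is read from these counts.

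**Figure D5:**
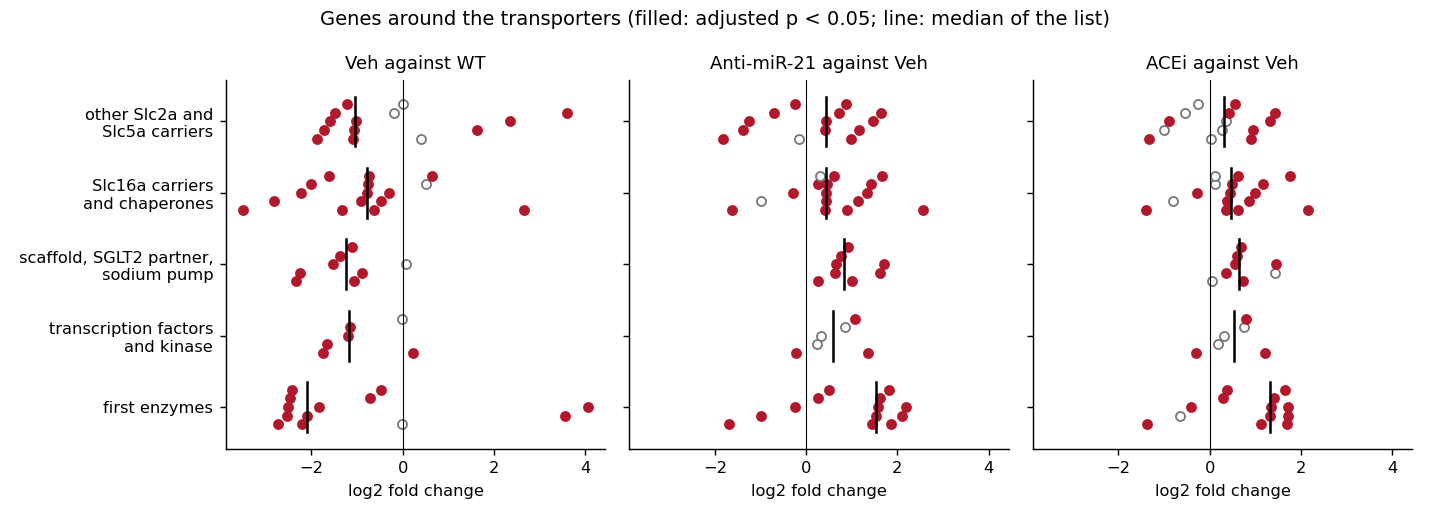
log2 fold changes from edgeR (x axis) of the tested genes of 5 lists in 3 comparisons, 1 point per gene, filled where the adjusted p is under 0.05, with a vertical line at the median of each list. Medians are between -2.11 and -0.78 in Veh against WT and between 0.31 and 1.54 in the comparisons of treated with Veh mice.

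For each transporter the genes with the most similar profile over the 20 mice were found by the root mean square (RMS) difference of log2 CPM after centring each gene on its mean, among 13156 genes other than the members. These are descriptions, and the mice of a group share their treatment. For Slc5a2 the nearest was Slc2a12 (RMS difference 0.17, where Slc5a2 itself varied by 0.75 about its mean), followed by Xylt1 (0.19). For Slc5a8, which varied by 1.38, the nearest were Bhmt2 (0.14) and Amacr (0.16). Slc2a5 (1.01) was most like Dhtkd1 (0.13) and Selenbp1 (0.14), and Slc2a2 (0.59) most like Abcc2 (0.10), an apical efflux pump. Slc5a12 (0.71) had the least similar neighbours, Acss1 (0.26) and Car12 (0.29). Slc5a1 varied by 0.31 and was nearest to Fnip1 (0.15) and Cd302 (0.15), and Slc2a1 varied by 0.24 and was nearest to Il17re (0.12) and Enah (0.12). Among the members themselves Slc5a2 and Slc2a2 were closest, with an RMS difference of 0.27.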

How the data were processed

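Kidney RNA was sequenced as 100-base read pairs on an Illumina HiSeq instrument, and the authors used OSA4 in OmicSoft Studio 9.0 with GRCm38 for alignment and quantified genes with the Ensembl R83 models. The deposited expected counts per gene are estimates, 29.1% of the positive ones are not whole, and they were rounded. The deposited FPKM, scaled by exon length and library total, have 33368 entries, mostly of UCSC gene models, with exon lengths in a deposited annotation. The deposited counts of alignments were 70004591 to 73294858 per mouse. Of the FPKM columns, 3 match no sample and were not used.

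Genes were kept by filterByExpr, with a minimum count of 10 and a minimum total of 15, and tested in edgeR 4.0.16 in R 4.3.3 (TMM, quasi-likelihood F-test, 1 coefficient per group over 20 mice, Benjamini-Hochberg over all 17622 genes). The design assumed this test in place of the study's one-way model on log2(FPKM + 1), which was run as an alternative in limma 3.58.1. TMM factors were 0.770 to 0.850 in WT and 1.12 to 1.26 in Veh mice. DESeq2 1.42.0, other scalings, filters and pseudocounts, flow cell as a term or alone, the compared groups alone and each mouse left out were further alternatives. Flow cell B alone and, for fold changes and ratios, the omission of mice with over 100 summed CPM of adipocyte markers were chosen after seeing the data. Count ratios (0.5 added to each count) were compared with exact two-sided permutation tests in scipy 1.17.1. On simulated counts with 200 genes changed by 1 on the log2 scale, 93% were recovered for Veh against WT among 17218 genes and 83% for Anti-miR-21 against ACEi among 17232 genes. Of the genes called there, 6.06% and 4.05% were false. In the data 73% of all genes tested were called in Veh against WT, so the simulation does not test the scaling under so broad a change.

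Mice were grouped by their labels and named by their titles. Each mouse is 1 library, so p-values measure the spread between mice. The members, lists, markers and tests were chosen with earlier results of these data known. Named from each list were up to 2 genes that rose and 2 that fell most in Veh against WT among those past the threshold, and for each member the 2 most similar profiles among genes averaging 1 log2 CPM or more (prior count 2). Some items that these rules name are not reported here. Figures were drawn with matplotlib 3.10.9.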

Additional observations from a re-analysis of the deposited data

How the results depend on the processing

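Of the members' fold changes under alternatives, 861 kept their direction and side of the threshold, 9 were uncalled throughout and changed sign, 68 lost the call, 16 gained it and 5 reversed. Slc5a1 in Veh against WT reversed with library totals (0.18), log2(FPKM + 1) (0.19) and log2(FPKM + 0.1) (0.20), and within flow cell B Slc2a1 in Veh against WT was at -0.0053 and Slc5a12 in ACEi against WT at 0.67. The number of members called in Anti-miR-21 against WT, 5 (43.7% of all genes called), was 3 with flow cell as a term (41.2% of all genes), 2 with library totals (49.5%), 2 with log2(FPKM + 1) (35.9%) and 2 with log2(FPKM + 0.1) (38.1%), and 6 each with upper-quartile scaling (43.3%), FPKM divided by TMM factors (33.4%) and the mice high in adipocyte markers left out (44.6%). That in Veh against WT, 7, was 4 within flow cell B (50.1% of all genes). The log2 ratio of Slc5a8 to Slc5a12 passed the threshold in ACEi against Veh as a ratio of FPKM (1.02, adjusted permutation p = 0.0390) and missed it in Veh against WT within flow cell A (-1.57, adjusted permutation p = 0.0571). Without the mice high in adipocyte markers, it was -1.97 in Veh against WT (adjusted permutation p = 0.0612), that of Slc5a1 to Slc5a2 was -0.20 in Anti-miR-21 against Veh (adjusted permutation p = 0.0804), and in ACEi against Veh, where 3 against 3 mice cannot pass, those of Slc5a1 to Slc5a2 (-0.67) and Slc2a1 to Slc2a2 (-1.28) had adjusted permutation p = 0.109. The causes of the other changes were not tested. Leaving out 1 mouse gave 6 to 7 members in Veh against WT, where 12491 to 12804 of all genes tested were called. It gave 2 to 5 in Anti-miR-21 against WT (6652 to 7935 of all genes) and 3 to 5 in ACEi against WT (6856 to 8418). All 7 members were called throughout in Anti-miR-21 against Veh (9655 to 10355 of all genes) and in ACEi against Veh (4978 to 7335). Throughout, 0 were called in Anti-miR-21 against ACEi, where 0.584% of all genes were called with all mice. These fits tested 17529 to 18006 genes. No paired analysis was possible because the names of the mice pair none of them across groups. Within flow cell A ACEi had 1 mouse and within flow cell B Anti-miR-21 had 1, so those comparisons were not run.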

Other observations

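Veh A16 was the highest Veh mouse for 6 of the 7 members and A1 the lowest for 4, and among Anti-miR-21 mice A22 was the highest for 4. A16 also had the highest summed proximal tubule markers of the Veh mice (5689 CPM) and A22 the highest of the Anti-miR-21 mice (17650 CPM). Among WT mice A17 was the lowest for 4 members, while A18 was the highest for 2 and the lowest for 2, and both were run on flow cell B. ACEi A11 was the highest of its group for 3 and the lowest for 3. Whether mice were at the same end for several members was not tested. Marker genes of other cell types were not all lower in Veh than in WT mice. The 4 podocyte markers summed to 160 to 269 CPM in WT, 250.4 to 284 in Veh, 328 to 385 in Anti-miR-21 and 312 to 327 in ACEi mice, while the 5 erythroid markers summed to 716 to 3977, 7.76 to 250, 467 to 875 and 246 to 487 CPM.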
